A study of Mus musculus with 3 samples.

Results

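The 35 genes described here encode proteins that cells need to divide their chromosomes, and they were followed across the cell types of the mouse lung in 3 single-cell libraries. The members were chosen by symbol, among 27998 genes in each deposited table, and every one of the 35 was found. They fall into 6 roles: cyclins and their kinase (Cdk1, Ccnb1, Ccnb2, Ccna2, Cks2), entry into and exit from mitosis (Ube2c, Cdc20, Cdca3, Plk1, Aurka), the spindle checkpoint and the chromosomal passenger complex (Bub1, Bub1b, Ttk, Aurkb, Birc5, Cdca8), the kinetochore (Cenpa, Cenpe, Cenpf, Spc25, Nuf2, Ndc80), the spindle (Tpx2, Kif11, Kif20a, Kif23, Hmmr, Nusap1, Ckap2, Ckap2l, Gtse1) and the chromosomes themselves (Mki67, Top2a, Smc4, Hmgb2). Hmgb2, Smc4, Cks2 and Ckap2 are also read in many cells that do not divide, so levels are given for all 35 genes and, where stated, for the 31 without these 4.

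Each library was a droplet library (10x Genomics 3' chemistry, V2) of cells from lungs of female C57BL/6 mice aged 10 to 12 weeks. In the library NI the mice were not irradiated. In CONV the thorax received 17 Gy at a conventional dose rate, and in FLASH it received 17 Gy delivered in FLASH mode, that is, in a very short time at a very high dose rate; both used a 4.5 MeV electron linear accelerator, and isoflurane was the anaesthetic. Lungs were dissociated with enzymes, filtered at 100 and then 40 µm and freed of red cells; how many mice went into a library and how long after irradiation the lungs were taken are not given in the sources used here. With 1 library per group there is no replicate check of any difference below. A difference between libraries and a difference between treatments cannot be told apart. Every interval covers counting error only, at the 95% level. Those of levels and ratios take each counted RNA molecule as independent of the others. They are therefore too narrow where a few cells hold most of the molecules.

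Mitotic genes are transcribed in a wave late in the cell cycle, and their RNA and protein are removed again as the cell leaves mitosis, so a cell that holds many of them at once is usually in or near division. Cdk1 bound to a cyclin drives entry into mitosis, kinetochores tie each chromosome to the spindle, the checkpoint kinases hold division until every chromosome is tied, and the anaphase-promoting complex, with Cdc20 and the ubiquitin-carrying enzyme Ube2c, then destroys the cyclins. In the adult lung most epithelial, endothelial and stromal cells rest, whereas activated lymphocytes and myeloid precursors can divide quickly.

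Many promoters of this gene class carry CCAAT boxes, read by the factor NF-Y, and a short cell cycle element, read by MuvB complexes. Promoters of 30 of the 35 members were matched in RefSeq's mouse annotation (build GRCm38.p6); Aurkb, Ccna2, Kif20a, Smc4 and Tpx2 were not matched. In the 250 bases before the start, on both strands, CCAAT was found in 26 of 30 members (86.7%), against 34.5% of 27025 promoters, and 2 or more copies in 20 of 30 (66.7%), against 10.5%. TTTGAA or TTTAAA (the latter reads the same on both strands) was found in 16 of 30 (53.3%), against 25.5%, and together with CCAAT in 15 of 30 (50%), against 9.0%. A GGCGG 4 bases before TTTGAA or TTTAAA was found in 0 of 30, against 0.0703%. A pair of CCAAT boxes on 1 strand with starts 30 to 35 bases apart, a range chosen after the positions were seen, stood in 8 of 30 members (26.7%: Aurka, Ccnb1, Ccnb2, Cdca8, Cdk1, Hmmr, Spc25 and Ube2c), against 312 of 27025 promoters (1.15%). These are matches of letters in a window, not measured binding. CCAAT boxes on opposite strands can share 2 bases, CCAAT can share 1 base with TTTGAA or TTTAAA, and the GGCGG search includes the TTTGAA or TTTAAA that follows.

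The windows below, printed 5' to 3' on the gene's strand with motif letters in capitals, belong to members on which the results turn: Ccnb2, Cdk1, Ube2c, Spc25 and Hmmr for their spaced CCAAT pairs, Top2a and Mki67 for several boxes without that spacing, and Birc5 for a window with none. The regions are chr9:70421555-70421754 (minus strand) for Ccnb2, chr10:69352939-69353112 (minus) for Cdk1, chr2:164769729-164769897 (plus) for Ube2c, chr2:69206214-69206413 (minus) for Spc25, chr11:40733438-40733637 (minus) for Hmmr, chr11:99024190-99024389 (minus) for Top2a, chr7:135716380-135716579 (minus) for Mki67 and chr11:117849037-117849236 (plus) for Birc5. All lie upstream of the start, and all are shortened where needed so that no annotated exon is shown.
Ccnb2: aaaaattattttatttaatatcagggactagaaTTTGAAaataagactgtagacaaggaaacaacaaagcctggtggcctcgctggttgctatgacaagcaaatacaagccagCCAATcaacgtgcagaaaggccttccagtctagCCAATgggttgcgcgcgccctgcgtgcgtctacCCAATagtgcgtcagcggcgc
Cdk1: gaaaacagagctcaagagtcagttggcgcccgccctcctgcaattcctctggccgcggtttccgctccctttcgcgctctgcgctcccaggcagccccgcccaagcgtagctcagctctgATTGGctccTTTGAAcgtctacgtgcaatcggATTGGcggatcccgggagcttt
Ube2c: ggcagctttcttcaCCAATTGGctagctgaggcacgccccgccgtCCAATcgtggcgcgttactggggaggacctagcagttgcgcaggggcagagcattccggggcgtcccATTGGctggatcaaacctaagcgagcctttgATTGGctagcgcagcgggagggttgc
Spc25: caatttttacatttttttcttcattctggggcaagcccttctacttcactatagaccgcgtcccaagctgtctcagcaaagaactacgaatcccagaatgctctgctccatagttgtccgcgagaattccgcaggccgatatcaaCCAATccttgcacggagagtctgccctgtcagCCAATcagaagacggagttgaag
Hmmr: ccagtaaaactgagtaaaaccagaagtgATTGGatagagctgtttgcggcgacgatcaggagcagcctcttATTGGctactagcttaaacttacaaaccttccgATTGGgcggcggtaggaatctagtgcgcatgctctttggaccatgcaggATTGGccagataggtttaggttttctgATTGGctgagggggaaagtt
Top2a: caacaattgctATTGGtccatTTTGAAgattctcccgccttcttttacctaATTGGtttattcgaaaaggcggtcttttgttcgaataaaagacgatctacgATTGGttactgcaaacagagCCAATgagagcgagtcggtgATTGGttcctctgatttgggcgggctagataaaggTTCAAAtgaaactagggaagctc
Mki67: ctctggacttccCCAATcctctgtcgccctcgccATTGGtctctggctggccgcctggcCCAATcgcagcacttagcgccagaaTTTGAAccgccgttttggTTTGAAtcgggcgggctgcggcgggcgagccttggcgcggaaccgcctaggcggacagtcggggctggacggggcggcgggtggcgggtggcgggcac
Birc5: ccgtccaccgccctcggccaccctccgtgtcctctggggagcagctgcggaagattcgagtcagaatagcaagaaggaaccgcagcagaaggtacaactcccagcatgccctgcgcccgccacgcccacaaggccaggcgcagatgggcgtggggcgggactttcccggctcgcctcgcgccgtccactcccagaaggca

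In Ccnb2 the 3 CCAAT boxes start at -87, -54 and -21 from the gene's start, and a TTTGAA stands at -167. Spc25 has 2 boxes at -55 and -23 and no TTTGAA or TTTAAA in the window. In Cdk1 the boxes at -80 and -48 lie on the opposite strand, with TTTGAA at -71; another box at -208 and a TTTGAA at -15 lie outside the window shown. Top2a holds 6 boxes within 250 bases, 5 of them on the opposite strand, and Mki67 holds 3. Birc5 has only a TTTAAA at -220, outside the window shown, and Nuf2, Ndc80 and Nusap1 hold none of the motifs.

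Before filters the NI, CONV and FLASH libraries held 7114360, 7463259 and 5498902 UMIs (unique molecular identifiers, each 1 captured RNA molecule). After filters, 6346 of 6662 barcodes were kept: 1705 in NI, 2387 in CONV and 2254 in FLASH. The fewest UMIs in a kept barcode were 1497, 1358 and 995, so the libraries differ in the depth of their shallowest cells. Cells were clustered and named from marker genes into 25 classes, each "-like" because the names were rebuilt here, with 2 classes left unnamed. The libraries shared 7 (NI and CONV), 7 (NI and FLASH) and 5 (CONV and FLASH) barcodes, none of which belonged to a cell counted as mitotic. Because NI holds a large population with RNA of Rag1, Rag2, Dntt or Ptcra, genes of immature lymphocytes of the thymus, its 461 barcodes with any UMI of these 4 genes (the Rag set) are described apart, which leaves 1244 NI cells outside the set. CONV and FLASH held 10 and 7 kept cells with such a UMI, and these stayed with the rest.

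The Rag set was where most of the mitotic RNA in the series lay. The 35 members together reached 9975 CPM (UMIs per 1000000 UMIs of the same cells; interval 9846–10104) in its 461 cells. A cell was counted as mitotic when at least 2 different genes of the 31 had a UMI after every cell was thinned at random to 1000 UMIs, and 204 of the 461 passed (44.3%; 39.7–48.9; 53.1% before thinning). Nearly all of these were in the 339 cells of the thymocyte-like class, of which 200 passed (59.0%; 53.6–64.3). In the Rag set, 228 cells with 3 or more of the 31 members held 99.0% of the set's UMIs of those genes, so the RNA was concentrated in cells that held many members at once.

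Within these 339 thymocyte-like cells every one of the 35 members had UMIs, at levels that ranged widely. Hmgb2, a DNA-bending protein of open chromatin, stood highest at 5512 CPM with a UMI in 89.1% of the cells. Ube2c followed at 771 CPM, Top2a, which untangles DNA, at 679 CPM, and Birc5 (survivin, a subunit of the passenger complex) at 604 CPM, with UMIs in 50.1%, 56.9% and 59.0% of the cells. The kinesin-like motor genes and checkpoint kinases were low: Kif20a reached 43.2 CPM, Bub1 36.1 CPM and Ttk 29.6 CPM. The spindle gene Gtse1, at 21.3 CPM, was the lowest of the 35 in these cells. CPM is not per transcript length, but 3' counting reads 1 end of each molecule, so the order is of captured molecules.

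Outside the Rag set, few cells were mitotic in any library. In NI 20 of 1244 cells passed (1.61%; 0.985–2.47), in CONV 31 of 2387 (1.3%; 0.884–1.84) and in FLASH 19 of 2244 (0.847%; 0.511–1.32; another 10 FLASH cells with under 1000 UMIs were left out). The intervals of NI and CONV overlap widely and that of FLASH lies lowest. Before thinning the shares were 7.72%, 2.47% and 1.42%, at median depths of 2712, 2351 and 1795.5 UMIs, so the depth of the cells moves with the order.

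How near the cells lay to the limit differed between libraries. In NI 169 cells held exactly 1 member after thinning and 9 held exactly 2, whereas 7 held 5 or more. In CONV 145 cells held 1, 9 held 2 and 14 held 5 or more; in FLASH 121 held 1, 4 held 2 and 10 held 5 or more. As shares, cells with exactly 1 member were 13.6% in NI, 6.07% in CONV and 5.39% in FLASH, whereas cells with 5 or more were 0.563%, 0.587% and 0.446%, with NI level with CONV. The summed level of the 31 members was 247 CPM in NI, 184 CPM in CONV and 139 CPM in FLASH, and that of all 35 was 722 (698–747), 542 (525–559) and 470 (451–489) CPM.

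A small number of cells carried most of the mitotic RNA. Before thinning, 28 NI cells with 3 or more members held 628 of 1126 UMIs of the 31 genes (55.8%), 37 CONV cells held 944 of 1305 (72.3%) and 19 FLASH cells held 492 of 725 (67.9%). In all other cells the level was 115 CPM (105–125) in NI, 52.3 (47.1–58.0) in CONV and 45.6 (40.0–51.9) in FLASH. This low level was higher in NI than in CONV in each of the 5 compartments: 179, 124 and 83.0 CPM (NI, CONV, FLASH) in lymphoid cells, 109, 80.2 and 69.0 in myeloid cells, 66.7, 23.8 and 19.9 in epithelial cells, 81.4, 31.1 and 34.1 in stromal cells and 93.2, 41.1 and 51.4 in endothelial cells.

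**Figure D1:**
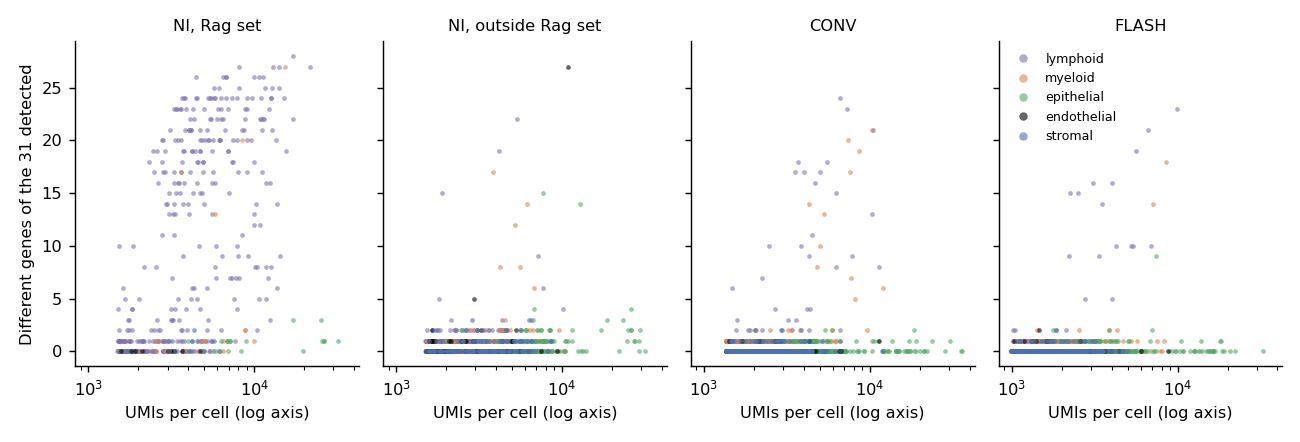
Each point is a cell: the x axis is its UMIs (log axis) and the y axis the number of different mitotic genes of the 31 with a UMI before thinning, coloured by compartment, with panels for the Rag set of NI, NI outside it, CONV and FLASH. Most cells lie at 0 to 2 genes, and the 28 NI, 37 CONV and 19 FLASH cells outside the Rag set with 3 or more stand above them, among them 1 endothelial NI cell with 27.

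By the way the Rag set was drawn, the NI cells outside it hold no UMI of the 4 Rag-set genes, so those cells and the Rag-set cells of the same compartments were put together to compare the mitotic RNA with that of the 4 genes. The thymocyte-like cells had 5.19 UMIs of the 31 members for every UMI of those 4 genes (4.96–5.44). In all kept NI cells with fewer than 3 members, apart from the thymocyte-like ones, the ratio was 3.69 (2.84–4.84) in lymphoid cells, 3.96 (2.51–6.48) in myeloid, 4.13 (2.62–6.74) in epithelial, 2.55 (1.53–4.38) in stromal and 1.5 (0.727–3.19) in endothelial cells. The myeloid and epithelial intervals include 5.19 and the other 3 lie below it. The limit of fewer than 3 members lowers these ratios and was not set for the thymocyte-like cells. Without it the ratios were 4.80 in lymphoid, 10.0 in myeloid, 6.81 in epithelial, 2.82 in stromal and 14.3 in endothelial cells. The part of thymocyte RNA outside its cells in the NI levels was not tested.

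Ciliated cells of the airway do not divide, so the ciliated-like class is given as a reference for RNA that reaches a droplet from other cells. By the mitotic rule 1 of 20 NI cells, 0 of 98 CONV cells (which allows up to 3.06%) and 2 of 91 FLASH cells passed, at median depths of 6447, 4370 and 3514 UMIs; before thinning the shares were 10.0%, 2.04% and 2.20%. The 31-member level in this class was 209 CPM in NI (139–302), 22.3 in CONV and 79.3 in FLASH. Single cells set these values: 1 NI cell with 14 different members held 20 of the 28 UMIs and 1 FLASH cell with 9 members held 18 of 28, and without them the levels were 66.0 CPM (28.5–130) in NI and 28.9 CPM (13.9–53.2) in FLASH. The reference is therefore known only to within these limits, and shares of mitotic cells near those of the ciliated-like class are not read as division.

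**Figure D2:**
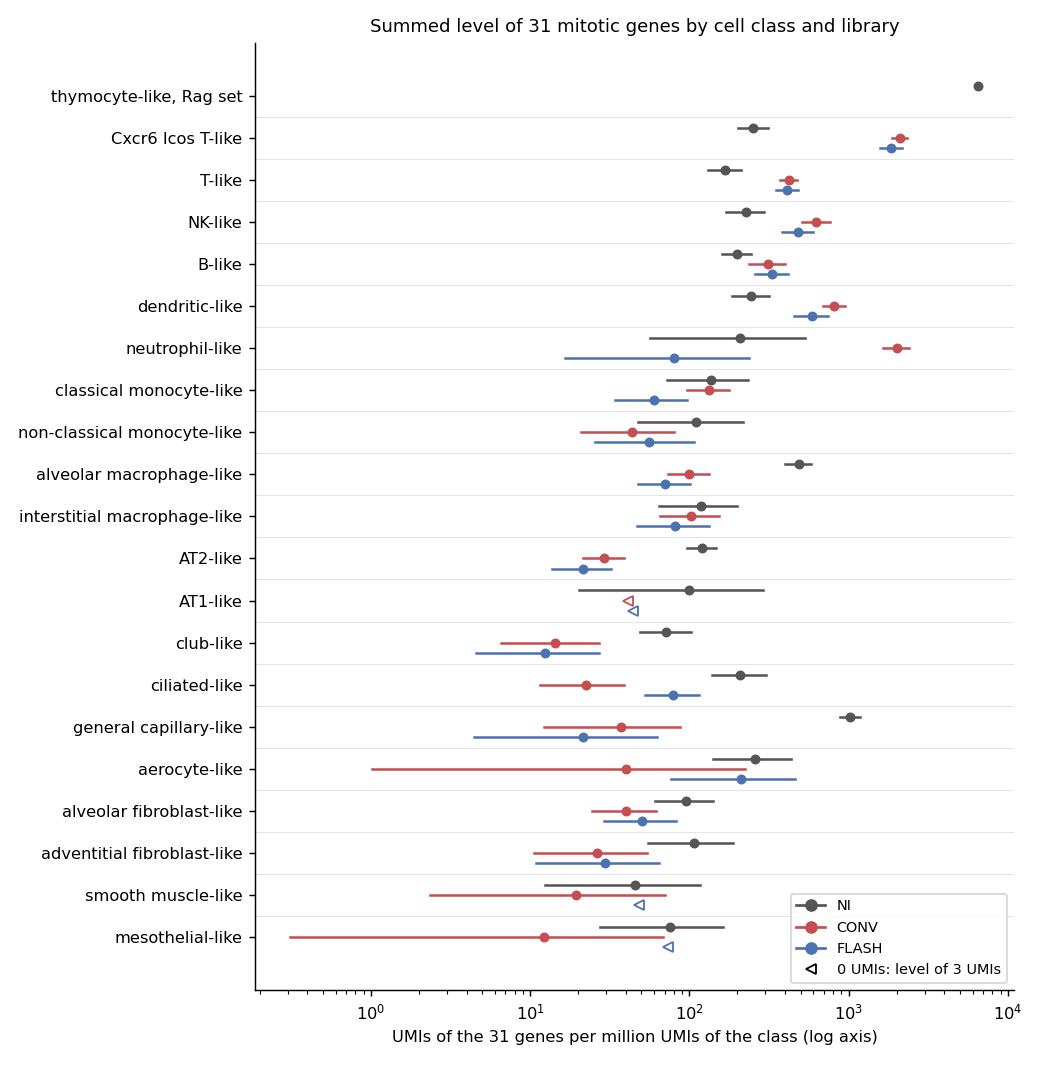
Summed level of the 31 mitotic genes (CPM, log axis) in each cell class of each library, with exact Poisson intervals, beside the thymocyte-like Rag set of NI; an open triangle marks 0 UMIs at the level of 3 UMIs. CONV and FLASH lie above NI in the Cxcr6 Icos T-like class (2093 and 1850 against 253 CPM), and NI lies above both in AT2-like, capillary-like and alveolar macrophage-like cells.

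The compartments did not follow 1 order. In lymphoid cells the 31 members stood at 336 CPM (307–367) in NI, 682 (634–732) in CONV and 555 (506–606) in FLASH, so CONV was 2.03-fold NI (1.81–2.28), FLASH 1.65-fold NI (1.45–1.88) and FLASH 0.813-fold CONV (0.724–0.913). In myeloid cells the levels were 266, 268 and 114 CPM: NI and CONV were level, and FLASH was 0.428-fold NI (0.345–0.531) and 0.425-fold CONV (0.350–0.514). Irradiated epithelial, endothelial and stromal cells were lower than NI in both modes, at 113, 23.8 and 28.9 CPM, 837, 41.1 and 51.4 CPM, and 89.9, 31.1 and 34.1 CPM.

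Shares of mitotic cells in the lymphoid compartment had the same order as the levels. In NI 9 of 603 lymphoid cells passed (1.49%), in CONV 21 of 529 (3.97%) and in FLASH 16 of 546 (2.93%), at median depths of 2173, 1833 and 1385 UMIs. CONV lay 2.48 percentage points above NI (0.583–4.62). FLASH lay 1.44 points above NI (-0.292–3.35) and 1.04 points below CONV (FLASH minus CONV -1.04, interval -3.35–1.2), and both of these intervals include 0. Before thinning the shares were 6.47%, 6.43% and 3.62%, and after thinning to 1500 UMIs, which leaves out the shallower cells, they were 2.49%, 5.91% and 7.14%, so the order of CONV and FLASH turned with that depth. Of the myeloid cells, 5 of 205 passed in NI, 9 of 595 in CONV and 1 of 595 in FLASH.

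The lymphoid order depends on which NI barcodes are set apart. With none kept apart the direction turned: CONV was then 0.245-fold and FLASH 0.209-fold NI for the 35 members, against 1.54 and 1.31. With only barcodes of 2 or more UMIs of the 4 genes kept apart the ratios were 1.19 and 1.01, so the size of both comparisons with NI rests on where that line is drawn. Outside the Rag set 12 NI cells were still thymocyte-like: they held 201 of the 499 UMIs of the 31 members in NI lymphoid cells, and 3 of the 12 passed. With the whole thymocyte-like cluster left out the ratios were 1.89 and 1.60.

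**Figure D3:**
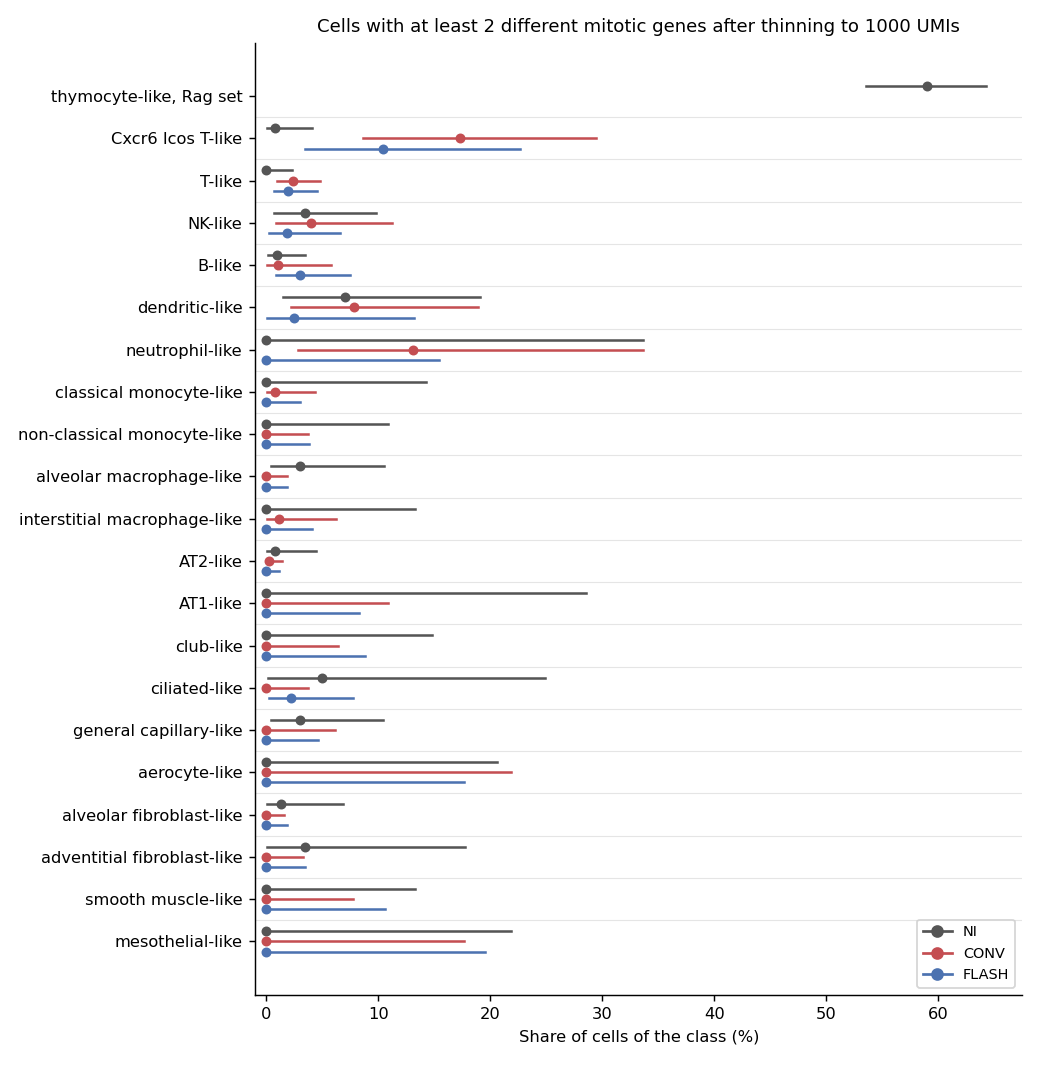
Percent of cells with at least 2 different mitotic genes after thinning to 1000 UMIs, per class and library, with exact binomial (Clopper-Pearson) intervals. The thymocyte-like Rag set stands at 59.0%, the Cxcr6 Icos T-like class at 0.735% in NI, 17.2% in CONV and 10.4% in FLASH, and the neutrophil-like class at 13% in CONV.

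The Cxcr6 Icos T-like class, T cells or innate lymphoid cells with the tissue-homing receptor gene Cxcr6 and the costimulator gene Icos, held the highest share of any class in CONV and in FLASH. In CONV 10 of 58 cells passed (17.2%; 8.59–29.4), in FLASH 5 of 48 (10.4%; 3.47–22.7) and in NI 1 of 136 (0.735%). CONV exceeded NI by 16.5 points (8.22–28.2) and FLASH exceeded NI by 9.68 points (2.93–21.4), while FLASH minus CONV was -6.83 points (-19.9–7.17). The 31-member level was 253, 2093 and 1850 CPM, or 8.28-fold in CONV (6.51–10.6), 7.32-fold in FLASH (5.60–9.64) and 0.884 for FLASH against CONV (0.731–1.07). A further 17 NI cells of the class were in the Rag set and are not in these values. They held 50 UMIs of the 31 members, 45 of them in 1 cell with 19 members, against 84 UMIs in the 136 NI cells.

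The NI cells of that class were not of the same kind as the irradiated ones by other genes. Itm2a, a gene of maturing thymocytes, stood at 1317 CPM in NI, 47.4 in CONV and 11.1 in FLASH, and Ccr9, a homing receptor gene also used by thymocytes, at 310, 0 and 33.2 CPM. Cxcr6 itself was at 210, 326 and 354 CPM and Icos at 244, 356 and 498. The part of this difference in the mitotic shares was not tested. Without cells of 3 or more members the class stood at 236 CPM in NI, 179 in CONV and 100 in FLASH, so the order of NI and the irradiated libraries was the opposite in the cells with few or no members.

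Other lymphoid classes held fewer mitotic cells. In T-like cells 0 of 158 passed in NI (which allows up to 1.9%), 7 of 300 in CONV and 5 of 257 in FLASH, with 167, 422 and 412 CPM for the 31 members. A single CONV cell held 89 of those UMIs, and without it the CONV level was 274 CPM and the 35-member ratio to NI went from 1.25 to 0.998. In NK-like cells 3 of 87, 3 of 75 and 2 of 107 passed, and in B-like cells 2 of 210, 1 of 95 and 4 of 134, with B-like levels of 199, 312 and 330 CPM. A single CONV B-like cell held 41 of 61 UMIs, and without it CONV stood at 106 CPM. The NK-like and B-like shares rest on at most 4 cells a library.

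Among myeloid classes outside the Rag set, dendritic-like cells passed in each library. Neutrophil-like, classical monocyte-like and interstitial macrophage-like cells passed in CONV only, and alveolar macrophage-like cells in NI only. A single CONV classical monocyte-like cell with 10 members held 25 of the 44 UMIs of the 31 members in its class. In the dendritic-like class 3 of 43 NI, 4 of 51 CONV and 1 of 40 FLASH cells passed, at 244, 813 and 587 CPM. For the 35 members the dendritic-like ratio to NI was 1.79 in CONV and 1.28 in FLASH, and FLASH turned to 0.942 without its strongest cell; 9 further NI dendritic-like cells, with 155 UMIs of the 31 members, were in the Rag set. In the neutrophil-like class 0 of 9 NI cells and 0 of 22 FLASH cells passed, which allows up to 33.3% and 13.6%, but 3 of 23 CONV cells did (13%), and these 3 held 113 of the class's 115 UMIs. Summed over the 3, the granule genes of neutrophil precursors, Ngp, Camp and Ltf, stood at 35051, 46460 and 2823 CPM, against 3659, 4599 and 445 CPM in the other 20 CONV cells of the class. The 3 cells were not alike: the strongest, with 7408 UMIs, held 58 of the 113 mitotic UMIs but 90 UMIs of the neutrophil markers and 15 of the T cell markers, while the other two held 1113 and 1532 neutrophil marker UMIs and 0 of the T cell markers. A further 3 NI neutrophil-like cells were in the Rag set, and 2 of them held 67 UMIs of the 31 members; with them included the 35-member ratio of CONV to NI went from 2.23 to 0.828. In alveolar macrophage-like cells 2 of 66 NI cells passed and 0 of 197 and 0 of 202 in CONV and FLASH (which allows up to 1.52% and 1.49%), and 4 NI cells held 84 of the 113 UMIs.

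Lymphoid members by role show where CONV and FLASH stood apart from NI. A member counted in a comparison had at least 20 UMIs over both libraries, so members that are low everywhere drop out, and a member low in NI could enter through its irradiated level. Of 35 members, 21 entered for CONV against NI: 11 were past 2-fold higher, where 3.21% of 7755 genes were, and 0 lower (6.02% of genes), and their median log2 ratio was 1.09 against -0.14 over all genes. For FLASH against NI 19 entered, with 5 past 2-fold higher (2.78% of all genes) and 1 lower (7.27%), and a median of 0.68 against -0.19. For FLASH against CONV 21 entered, 2 of them past 2-fold lower (2.88%) and 0 higher (1.65%), with a median of -0.36 against -0.04. Without the strongest cell of each library no member was past 2-fold lower in FLASH against NI (0 of 16) or against CONV (0 of 18). The comparisons share libraries, so they are not independent of one another.

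**Figure D4:**
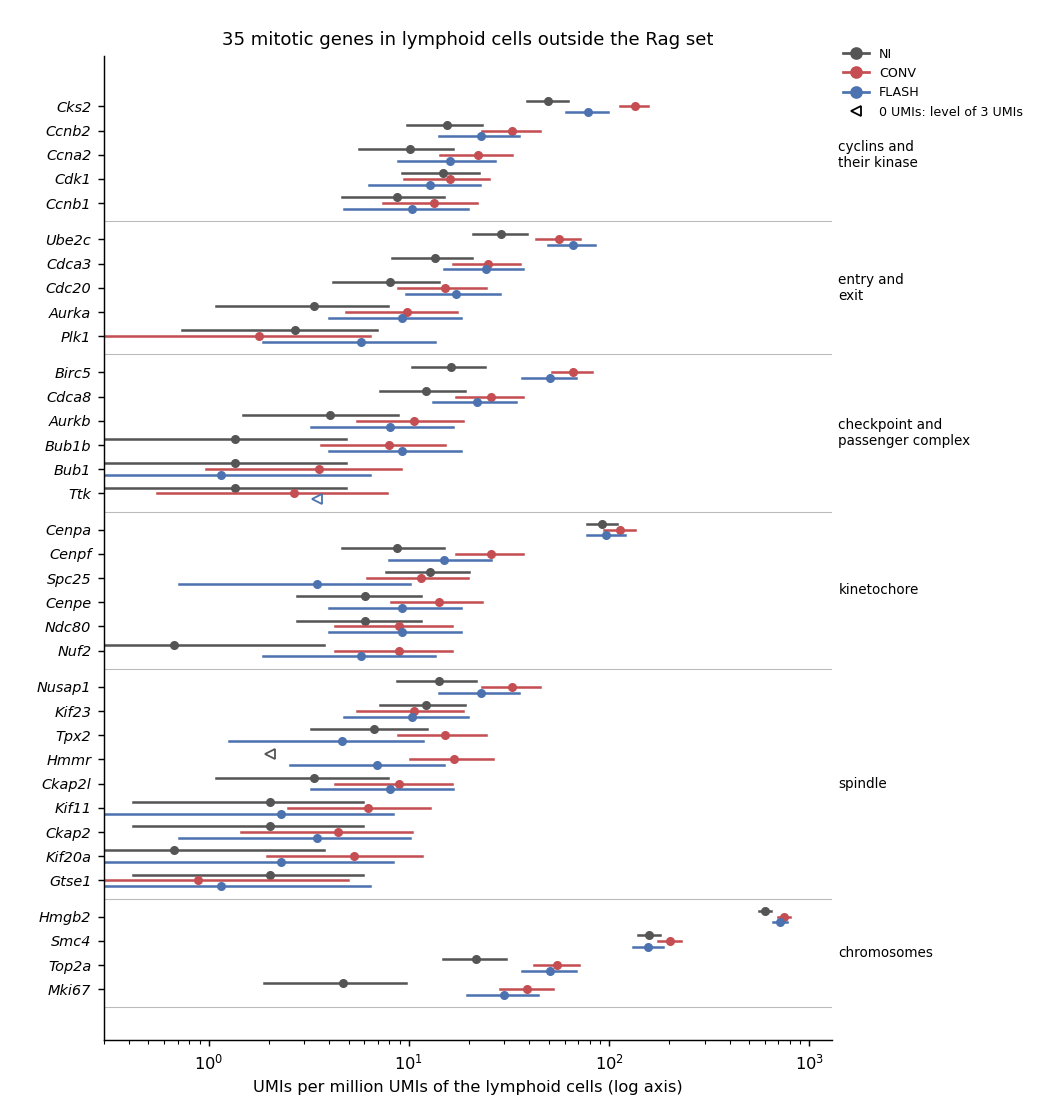
Level of each mitotic gene (CPM, log axis) in lymphoid cells outside the Rag set, 1 point per library with exact Poisson intervals cut at the left edge, grouped by role; an open triangle marks 0 UMIs at the level of 3 UMIs. Mki67, Birc5 and Top2a lie higher in CONV and FLASH than in NI, whereas Smc4 and Cenpa lie close together in the 3 libraries.

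Among the cyclins and their kinase, Cks2, a small subunit of the Cdk1 kinase, had 74 UMIs in NI, 151 in CONV and 68 in FLASH (49.8, 134 and 78.4 CPM). CONV was high and the other libraries lower: CONV was 2.69-fold NI (2.03–3.61) and FLASH 0.584-fold CONV (0.432–0.783). Ccnb2, a B-type cyclin, had 23, 37 and 20 UMIs (15.5, 32.9 and 23.1 CPM), with CONV 2.12-fold NI (1.23–3.74). Ccna2, the cyclin of S phase and early mitosis, was at 10.1, 22.2 and 16.1 CPM, with CONV 2.20-fold NI (1.12–4.49). The kinase Cdk1 itself was at 14.8, 16 and 12.7 CPM from 22, 18 and 11 UMIs, so the libraries lay close together.

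Among the genes of entry and exit, Ube2c was high in both irradiated libraries, with 43, 63 and 57 UMIs (28.9, 56.0 and 65.7 CPM). FLASH was 2.27-fold NI (1.5–3.46) and CONV 1.93-fold (1.29–2.92). Cdca3, part of a ligase that clears a mitotic brake, stood at 13.5, 24.9 and 24.2 CPM, and Cdc20, the activator of the anaphase-promoting complex, at 8.08, 15.1 and 17.3 CPM. Cdc20 was 2.14-fold NI in FLASH, with an interval (0.936–5.01) that includes 1. The kinases Aurka and Plk1 were rare, with 5, 11 and 8 UMIs and 4, 2 and 5 UMIs.

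The passenger complex held one of the larger differences. Birc5 had 24 UMIs in NI, 74 in CONV and 44 in FLASH (16.2, 65.8 and 50.7 CPM), so that CONV was 4.07-fold (2.54–6.75) and FLASH 3.14-fold NI (1.87–5.40). Cdca8 (borealin), which anchors the same complex to centromeres, stood at 12.1, 25.8 and 21.9 CPM, with CONV 2.13-fold NI (1.14–4.07). The kinase of the complex, Aurkb, had 6, 12 and 7 UMIs, and the checkpoint genes Bub1b, Bub1 and Ttk had 2, 9 and 8, then 2, 4 and 1, then 2, 3 and 0 UMIs, too few to enter.

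The kinetochore genes were uneven. Cenpa, the histone that marks centromeres, stood at 92.2, 113 and 96.9 CPM, within 1.22-fold of each other and without the gap seen for Birc5. Spc25, a subunit of the Ndc80 complex that grips microtubules, had 19 UMIs in NI, 13 in CONV and 3 in FLASH (12.8, 11.6 and 3.46 CPM), which makes FLASH 0.270-fold NI (0.0513–0.919) and Spc25 the lower member of that comparison. Cenpf, a large kinetochore protein of late G2, stood at 8.75, 25.8 and 15 CPM, with CONV 2.95-fold NI (1.48–6.17). Cenpe, a kinetochore motor, had 9, 16 and 8 UMIs, and its 2.35-fold ratio for CONV has an interval (0.977–6.03) that includes 1. Nuf2 had 1, 10 and 5 UMIs and Ndc80 had 9, 10 and 8.

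On the spindle, Nusap1, a microtubule bundling protein, stood at 14.1, 32.9 and 23.1 CPM, with CONV 2.33-fold NI (1.33–4.18). Tpx2, the activator of Aurka on the spindle, had 10, 17 and 4 UMIs, so that FLASH was 0.305-fold CONV (0.0747–0.936). Hmmr, a spindle-assembly factor, had 0 UMIs in NI, 19 in CONV and 6 in FLASH, and stayed under the 20 UMIs needed for the comparison with NI. FLASH against CONV it was 0.410-fold (0.134–1.07). The motors Kif23, Kif11 and Kif20a had 18, 12 and 9, then 3, 7 and 2, then 1, 6 and 2 UMIs, and no direction is read from them.

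Of the chromosome genes, Mki67, which coats mitotic chromosomes and is the usual marker of dividing cells, had 7 UMIs in NI, 44 in CONV and 26 in FLASH (4.71, 39.1 and 30 CPM). These were the largest ratios of the members that entered: 8.30-fold in CONV (3.71–21.8) and 6.36-fold in FLASH (2.69–17.4). Top2a stood at 21.5, 55.1 and 50.7 CPM, 2.56-fold NI in CONV (1.64–4.05) and 2.35-fold in FLASH (1.46–3.84). The broadly read Smc4 (a condensin subunit) and Hmgb2 differed little, at 159, 202 and 157 CPM and 603, 752 and 716 CPM, with Hmgb2 1.25-fold NI in CONV (1.13–1.37) and 1.19-fold in FLASH (1.07–1.32). Smc4 and Hmgb2 thus had smaller ratios than Mki67, Birc5 and Top2a, while Cks2, also broadly read, did not share this in CONV.

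In the Cxcr6 Icos T-like class alone the same members were far apart. Birc5 stood at 6.01, 202 and 210 CPM from 2, 34 and 19 UMIs, Top2a at 18, 184 and 233 CPM from 6, 31 and 21 UMIs, and Mki67 at 6.01, 119 and 88.6 CPM from 2, 20 and 8 UMIs. Ube2c was found in 17.2% of CONV and 10.4% of FLASH cells of the class and in 4.41% of NI cells. Hmgb2 stood at 559, 2294 and 2160 CPM here, a wider gap than in the lymphoid cells as a whole.

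In myeloid cells FLASH was the low library. Of 14 members that entered for CONV against NI, 2 were past 2-fold higher (5.17% of all genes); of 10 for FLASH against NI, 3 were past 2-fold lower (3.94%), with a median log2 ratio of -0.86 (0 of 5 were without the strongest cell of each library); of 13 for FLASH against CONV, 6 were past 2-fold lower (2.28%), with a median of -0.82. Top2a had 19 UMIs in NI, 30 in CONV and 3 in FLASH (23.8, 19.2 and 2.33 CPM), so that FLASH was 0.0975-fold NI (0.0185–0.331) and 0.121-fold CONV (0.0237–0.390). Ube2c and Cdca8 were high in CONV only among these libraries, with 8, 39 and 4 UMIs and 6, 32 and 5 UMIs: CONV was 2.48-fold (1.14–6.15) and 2.72-fold NI (1.12–7.95), and FLASH 0.124-fold (0.0323–0.345) and 0.189-fold CONV (0.0576–0.490).

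Other myeloid members went the same way with less room between the libraries. Birc5 had 12, 33 and 10 UMIs, with FLASH 0.367-fold CONV (0.162–0.763). Nusap1 and Cdca3 had 13, 18 and 7 and 13, 15 and 7 UMIs, and each was 0.333-fold NI in FLASH. Cdk1 had 10, 15 and 5 UMIs, and its FLASH to CONV ratio of 0.404 has an interval (0.115–1.17) that includes 1. Cks2, broadly read, stood at 122, 111 and 128 CPM and so did not share the low FLASH level. Plk1, Bub1, Ttk and Nuf2 had 0 UMIs in FLASH myeloid cells. Of the myeloid cells with 3 or more members there were 7 in NI, 11 in CONV and 2 in FLASH. They held 129 of 212, 300 of 419 and 59 of 147 UMIs of the members other than Hmgb2, Smc4, Cks2 and Ckap2. The NI and CONV levels thus rest mostly on few cells, and FLASH had very few such cells. In all other myeloid cells these members stood at 109 CPM (86.9–135) in NI, 80.2 (66.5–96.0) in CONV and 69.0 (55.4–85.1) in FLASH. There the intervals of CONV and FLASH overlap, while those of NI and FLASH do not.

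In endothelial cells 1 NI cell set the level. A general capillary-like cell with 10810 UMIs and 27 different members held 172 of the 186 UMIs of the 31 genes in its class, where NI stood at 1019 CPM, CONV at 37.4 and FLASH at 21.5; without it NI stood at 81.6 CPM. The cell carried 5 of the 6 capillary markers. Over all endothelial cells the NI level was 837 CPM with this cell and 123 CPM without it, and the 35-member ratios to NI went from 0.152 to 0.607 (0.395–0.921) in CONV and from 0.133 to 0.512 (0.319–0.803) in FLASH without the strongest cell of each library. Of 4 members that entered, 3 were past 2-fold lower in each irradiated library (8.23% of all genes in CONV, 7.83% in FLASH), namely Ube2c, Cenpa and Hmgb2; Ube2c had 32 UMIs in NI, 0 in CONV and 1 in FLASH. Without the strongest cells only 1 member entered, and 0 in CONV and 1 in FLASH were past 2-fold lower.

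Epithelial and stromal cells held little mitotic RNA in any library. Of 4 members that entered in epithelial cells for CONV against NI, 3 were past 2-fold lower (3.38% of all genes): Cks2, Hmgb2 and Mki67, with Hmgb2 at 153 CPM in NI, 71.7 in CONV and 84.3 in FLASH and Mki67 at 12, 11 and 5 UMIs. In AT2-like cells, the surfactant-making cells that renew the alveolus, 1 of 124 NI, 1 of 404 CONV and 0 of 330 FLASH cells passed (the last allows up to 0.909%), at 120, 29.2 and 21.6 CPM, and 1 NI cell held 35 of the class's 97 UMIs. In stromal cells Cks2 had 9 UMIs in NI, 21 in CONV and 3 in FLASH and was the 1 member of 3 past 2-fold lower in FLASH against CONV (1.90%). The 31-member NI levels of 113 and 89.9 CPM in these compartments lay between the 66.0 CPM of the NI ciliated-like cells without their strongest cell and the 209 CPM with it.

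Over all cells outside the Rag set, 31 members entered for CONV against NI: Hmmr and Gtse1 were past 2-fold higher (4.33% of all genes), and Cdk1, Aurkb and Spc25 past 2-fold lower (4.73%). For FLASH against NI 8 of 26 were past 2-fold lower (4.75%): Cdk1, Ccnb1, Ccnb2, Ccna2, Aurkb, Cenpe, Spc25 and Tpx2. For FLASH against CONV 3 of 29 were (1.04%): Cenpe, Tpx2 and Hmmr. The pooled values mix the higher lymphoid level with the lower level elsewhere, and the libraries differ in their share of lymphoid cells (603 of 1244, 529 of 2387 and 553 of 2254).

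The makeup of the mitotic RNA by role was much alike in the cells that held it. Over cells with 3 or more members, the 31 genes were split by role in 220 thymocyte-like Rag-set cells (10919 UMIs), 26 CONV lymphoid cells (644 UMIs), 16 FLASH lymphoid cells (415 UMIs) and 11 CONV myeloid cells (300 UMIs). Cyclins and their kinase made up 13.9%, 14.3%, 12.5% and 12.3%, checkpoint and passenger genes 17.5%, 18.5%, 18.3% and 21.7%, and kinetochore genes 17.7%, 18.8%, 19.8% and 16%. Entry and exit genes ranged from 17.1% in CONV lymphoid to 24.1% in FLASH lymphoid cells, and spindle genes from 9.88% in FLASH lymphoid to 16.7% in CONV myeloid cells. Single genes varied more: Mki67 made up 3.63% in the thymocyte-like cells against 6.83% and 6.27% in CONV and FLASH lymphoid cells, while Spc25 made up 4.28% against 1.86% and 0.48%. Cells were chosen by these same genes, so these shares are a description.

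**Figure D5:**
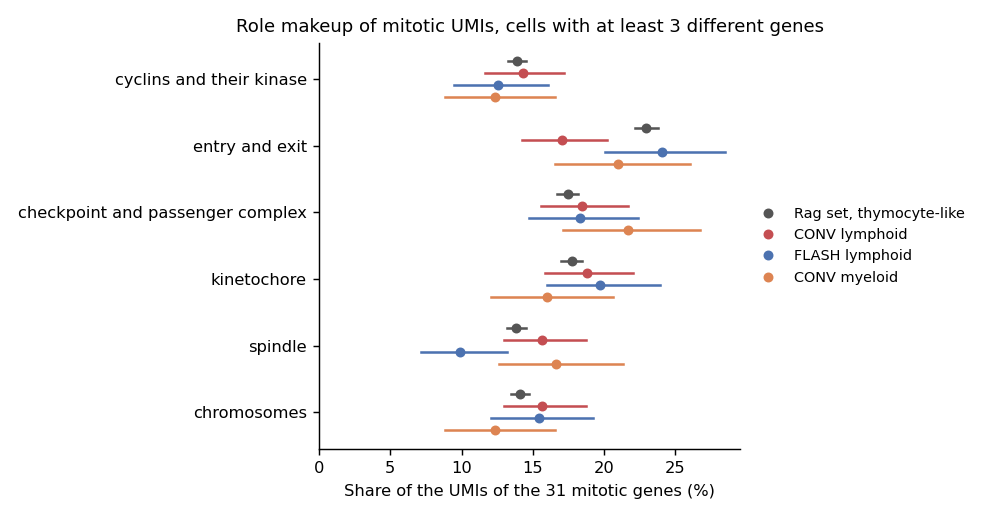
Share of the UMIs of the 31 mitotic genes (percent) taken by each role, in cells with 3 or more members, as points with exact binomial intervals for thymocyte-like Rag-set cells, CONV and FLASH lymphoid cells and CONV myeloid cells. Cyclins lie between 12.3% and 14.3% in the 4 groups described, and spindle genes are at 9.88% in FLASH lymphoid cells.

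Genes outside the 35 that go with mitosis were read in the cells that passed and those that did not. Among thymocyte-like Rag-set cells (200 against 139, median depths 4873.5 and 2164 UMIs), 42 of 46 further mitotic genes were past 2-fold higher, with a median log2 ratio of 2.56, against 517 of 6764 genes and a median of -0.04 over all genes. Of 30 replication genes 10 were (median 0.66), and of 12 measured genes of the transcription factors that time the cell cycle 9 were. Kpna2, an importin, had 238 against 5 UMIs (19.8-fold; 8.39–61.7), and Lockd, a non-coding RNA, had 794 against 50 (6.62-fold; 4.97–9.0). A larger part of the further mitotic genes than of the replication genes was thus past that fold. The cells were split by mitotic genes, so a higher level of further mitotic genes follows in part from the split. Kpna2 and Lockd were picked from the 10 genes outside the cell cycle lists whose ratios had the highest lower bounds.

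Cells that passed were set against the others in the Cxcr6 Icos T-like cells of CONV (10 against 48). Past 2-fold higher were 10 of 12 measured further mitotic genes and 4 of 4 replication genes, against 109 of 1190 genes. The lists hold 46 and 30 genes, and only genes with at least 20 UMIs over both groups of cells were measured. A gene low in the other cells could thus enter through the passing cells, which were themselves chosen by mitotic genes. Cks1b, a paralogue of Cks2, had 35 against 9 UMIs (9.12-fold; 4.30–21.6) and Tubb5, a tubulin, 103 against 43 (5.62-fold; 3.90–8.22). Ctla4, an inhibitory receptor gene of activated and regulatory T cells, was 4.89-fold higher (2.37–10.7) and had a UMI in 10 of the 10 passing cells. In FLASH (5 against 43) Tubb5 was 7.04-fold higher (4.33–11.7), with a UMI in 5 of 5. The genes named here were picked from the 10 outside the cell cycle lists whose ratios had the highest lower bounds. The counts are of few cells, and passing cells were deeper (4094.5 against 2162 UMIs in CONV, 2753 against 1544 in FLASH).

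In lymphoid cells other cell cycle lists had lower medians than the members. Of the replication genes, 3 of 25 were past 2-fold higher in CONV against NI (3.21% of all genes; median log2 0.17, against -0.14 over all genes), 2 of 22 further mitotic genes (median 0.31), 0 of 8 transcription genes and 0 of 5 G1 genes, with 1 G1 gene lower. In FLASH against NI the counts were 2 of 22 replication and 1 of 20 further mitotic genes (2.78% of all genes), with medians of 0.14 and 0.30 against -0.19. Dut, which keeps uracil out of DNA, stood at 58.6, 91.6 and 89.9 CPM, and H2afz, a histone variant gene, at 767, 970 and 956 CPM. In myeloid cells replication genes were lower in both irradiated libraries: 6 of 17 were past 2-fold lower in CONV (2.95% of all genes) and 10 of 15 in FLASH (3.94%) against NI. Their medians were -0.87 and -1.42, against 0.03 and 0.02 over all genes, and lower than the -0.29 and -0.86 of the myeloid members.

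The class names of the mitotic cells were checked cell by cell. Outside the Rag set 66 cells held 5 or more members: 16 in NI, 31 in CONV and 19 in FLASH. At least 2 markers of their own class were found in 58 of them, 16, 26 and 16 by library. In 3 cells, all of the CONV T-like class, none of the 10 own markers had a UMI; 1 of these, with 10258 UMIs and 13 members, held 76 UMIs of Car1, Car2 and Blvrb, genes of red cell precursors. The T-like count in CONV therefore includes cells whose class is not shown by their own genes. Other cells had a UMI of only 1 own marker. Among them was a CONV NK-like cell with 5019 UMIs (1 of 6 markers), which held 7 UMIs of the T cell markers. FLASH B-like cells with 3513 and 5237 UMIs also had 1 of 6 markers, at 3 and 1 UMIs. The class of these cells, and so part of those counts, is only weakly shown.

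Doublets, barcodes that hold RNA of more than 1 cell, could also pass. Before the analysis 23, 47 and 42 barcodes were removed as doublets in NI, CONV and FLASH, of which 10 in NI (5 of them outside the Rag set) and 0 in the other libraries would have passed as mitotic. With no removal the lymphoid ratios of the 35 members were 1.29 in CONV and 1.10 in FLASH against NI, and the number of members past 2-fold higher was 4 in CONV and 1 in FLASH. The comparisons of the irradiated libraries with NI therefore depend on the removal of a few NI barcodes.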

How the data were processed

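Whole-number UMI counts per gene and barcode were used as deposited; the authors made them with Cell Ranger 2.0 on mm10, per the submitters' processing notes. The members and the gene lists were chosen with earlier results of these data known. Barcodes needed 200 or more genes and no more than 10% of UMIs from mitochondrial genes. Doublets were removed with scanpy's Scrublet at an expected rate of 0.8% per 1000 barcodes. This took out the highest-scoring barcodes of each library up to that rate, since the automatic limit marked only 1, 30 and 13 barcodes in NI, CONV and FLASH. Cells were clustered on 2000 variable genes, 30 principal components, 15 neighbours and a Leiden resolution of 1 into 25 clusters, named from 35 marker lists (Python 3.11.15, scanpy 1.11.5, scipy 1.17.1, leidenalg 0.10.2).

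Counts were summed per library and class and divided by the UMIs of the same cells (CPM). Ratios have exact conditional binomial intervals, levels exact Poisson intervals, shares exact binomial (Clopper-Pearson) ones, and share differences use Newcombe's method. A gene entered a comparison with at least 20 UMIs over both libraries; past 2-fold is a rule of size, not a test, and a count of 0 was set to 3 UMIs for its log2 ratio. Members named were the 2 with most UMIs of each role and those past 2-fold in a compartment. Others were named after their values were seen. On simulated counts with known changes in lymphoid cells, the rule found 47 of 50 genes set 3-fold higher, and 2.70% of 7555 unchanged genes passed it. These counts were drawn for each gene as a sum, without single cells. The 2.70% therefore does not cover members whose UMIs lie mostly in a few cells.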

Additional observations from a re-analysis of the deposited data

Results flagged for a closer look

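Summed levels of the 35 mitotic genes went in opposite directions in different compartments of the same pair of libraries, and the difference between compartments was not tested. Against NI, CONV was higher in lymphoid cells (ratio 1.54) and lower in epithelial (0.393), stromal (0.589) and endothelial cells (0.152). FLASH against NI was likewise higher in lymphoid cells (1.31) and lower in myeloid (0.595), epithelial (0.505), stromal (0.556) and endothelial cells (0.133). The endothelial values rest on 1 NI cell: without the strongest cell of each library they were 0.607 and 0.512. FLASH against CONV was lower in lymphoid (0.851) and myeloid cells (0.639) and higher in epithelial cells (1.29). For the members other than Hmgb2, Smc4, Cks2 and Ckap2 the epithelial ratio was 1.22, with an interval (0.839–1.76) that includes 1. A single ciliated-like cell held 18 of the 57 UMIs of these members in FLASH epithelial cells. Without the strongest cell of each library their epithelial level was 19.9 CPM in FLASH and 23.1 CPM in CONV, the opposite order.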

How the results depend on the processing

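With 1 library per group, no alternative says how replicate mice would vary. No paired analysis was possible because the groups share only 1 replicate number. Depth limits the rarer members, and the low NI levels lie within the range of the ciliated-like reference, which single cells set. The alternatives chosen after seeing the data were other thinning draws, leaving out the thymocyte-like and Cxcr6 Icos clusters together, and leaving out the strongest cell. Where a value moved, the cause was not tested.

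The share of mitotic cells over all cells (NI 1.61%, CONV 1.3%, FLASH 0.847%) was 7.72%, 2.47% and 1.42% unthinned and 11.1%, 5.11% and 4.06% with all 35 members; NI was 13.1% with no barcodes kept apart and 0.884% with at least 3 members, and FLASH 1.49% after thinning to 1500 UMIs. The lymphoid share (1.49%, 3.97%, 2.93%) was 16.6%, 12.5% and 9.89% with all 35 members and 6.47% (NI) and 6.43% (CONV) unthinned; NI was 2.82% with the Rag set from 2 UMIs and 21% with none kept apart, CONV 2.34% without both clusters and FLASH 7.14% after thinning to 1500 UMIs.

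The 35-member ratio over all cells was, for CONV and FLASH against NI (0.750, 0.650), 0.639 and 0.554 with the Rag set from 2 UMIs, 0.831 and 0.721 without the thymocyte-like cluster, 0.141 and 0.122 with none kept apart, and 0.646 and 0.563 without doublet removal. CONV was 0.703 without both clusters, and FLASH 0.563 for 31 members. FLASH against CONV (0.867) was 0.823 at a 5% mitochondrial limit, 0.920 without both clusters and 0.759 for 31 members. In lymphoid cells (1.54, 1.31) the ratios to NI were 1.19 and 1.01 with the Rag set from 2 UMIs, 1.89 and 1.60 without the thymocyte-like cluster, 1.29 and 1.10 without doublet removal, 2.03 and 1.65 for 31 members, 1.69 and 1.42 without ribosomal and mitochondrial UMIs, and reversed to 0.245 and 0.209 with none kept apart. CONV was 1.35 without both clusters, and FLASH against CONV (0.851) was 0.959.

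Reversed in single classes were CONV against NI in T-like cells (0.998 without the strongest cell), in dendritic-like (0.904) and in neutrophil-like cells (0.828, both with none kept apart), and FLASH against NI in dendritic-like cells (0.964 with the Rag set from 2 UMIs, 0.646 with none kept apart, 0.942 without the strongest cell).

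Members past the fold are given with the members that entered and, in brackets, the share of all genes past it, which moved too. In FLASH against NI over all cells, 8 of 26 lower (4.75%) became 18 of 26 at 1.5-fold (11.7%), 3 of 17 with at least 50 UMIs (3.23%), 35 of 35 with none kept apart (8.79%) and 14 of 26 without doublet removal (4.86%). In lymphoid CONV against NI, 11 of 21 higher (3.21%) became 18 of 29 with at least 10 UMIs (5.63%), 6 of 10 with at least 50 (1.94%), 21 of 35 with no filter (13.6%), 0 of 35 with none kept apart (5.33%), 4 of 23 without doublet removal (3.22%) and 7 of 12 without both clusters (3.66%). In lymphoid FLASH against NI, 5 of 19 higher (2.78%) became 11 of 19 at 1.5-fold (7.18%), 8 of 26, 3 of 7 and 13 of 35 under the same filters (4.82%, 1.38% and 16.5%), 10 of 15 without the thymocyte-like cluster (3.02%), 0 of 35 with none kept apart (5.26%) and 1 of 19 without doublet removal (2.88%). In myeloid FLASH against CONV, 6 of 13 lower (2.28%) became 12 of 24, 0 of 4 and 17 of 35 under the same filters (4.04%, 0.451% and 10.4%). Of all values, 1276 moved by less than their counting interval or within 1.5-fold. Some of these could not move. Settings of the Rag set change NI only, so they leave the CONV and FLASH shares and FLASH against CONV as they were. Leaving out lymphoid clusters does not change the other compartments, and a count of 0 that stayed at 0 is included. The number is therefore not a measure of how stable the results are. A further 177, in other compartments, classes and counts of members, moved by more.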
